A study of Mus musculus with 12 samples.

Results

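The expression of 10 genes of the microtubule was followed across the 4 groups of cultured macrophages described here: the α-tubulin genes Tuba1a, Tuba1b, Tuba1c and Tuba4a, the β-tubulin genes Tubb5, Tubb4b, Tubb6 and Tubb2a, the γ-tubulin gene Tubg1, and Stmn1, which encodes stathmin. They were taken by their gene symbols, which were 10 of the 54532 genes in the count and FPKM tables. Each symbol belonged to 1 gene identifier, and all 10 genes passed the filter on low counts in every comparison.

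The cells were bone marrow macrophages grown from wild-type C57BL/6J mice aged 2 to 3 months, first in 12 and then in 120 ng/ml CSF-1 (the macrophage growth factor). They were plated on uncoated or fibronectin-coated plastic and then received 10 µg/ml of a control IgG or of an antibody that neutralizes ITGA5, the α5 chain of the fibronectin receptor, for 24 h. Each antibody was combined with each surface, so that there were 4 groups of 3 RNA-seq libraries (12 in all), named here by antibody and by the presence or absence of fibronectin, and every group had serum, CSF-1 and an antibody in common. The series asked which transcripts depend on ITGA5 when its ligand is or is not offered as a coat. The study calls the experiments of a group biologically independent, while the labels do not say whether the libraries came from separate animals or cultures, and p-values measure the spread between these libraries. A neutralized integrin on a culture dish is also a model without the other cells and matrix of a tissue.

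Microtubules are polymers of α- and β-tubulin heterodimers, and each chain is made from several genes whose products (isotypes) mix in one polymer. γ-tubulin sits in ring complexes that start new microtubules, and stathmin binds free tubulin dimers and promotes the shrinking of microtubules. Macrophages use this lattice for shape, transport and phagocytosis, and cells that enter mitosis rebuild it as the spindle.

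The first coding bases of 9 of the genes (Tubb6 is not shown) are given because they separate the families and because the first 4 codons (in capitals, 12 of the 30 bases printed) of the α and β genes encode the peptide start that marks tubulin mRNAs for decay when free tubulin is abundant. They were read 5′ to 3′ from GENCODE M21 transcripts of GRCm38. The stretches lie at chr15:98951665-98953453 (Tuba1a, minus strand), chr15:98933169-98934335 (Tuba1b, minus), chr15:99030422-99034120 (Tuba1c, plus), chr1:75217408-75219195 (Tuba4a, minus) and chr4:134470163-134470683 (Stmn1, plus), where they run over 2 exons, and within 1 exon at chr17:35838024-35838053 (Tubb5, minus), chr2:25224561-25224590 (Tubb4b, minus), chr13:34077900-34077929 (Tubb2a, minus) and chr11:101120194-101120223 (Tubg1, plus).
Tuba1a: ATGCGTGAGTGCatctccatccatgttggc
Tuba1b: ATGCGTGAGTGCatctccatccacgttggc
Tuba1c: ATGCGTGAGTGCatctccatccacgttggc
Tuba4a: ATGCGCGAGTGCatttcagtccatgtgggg
Tubb5: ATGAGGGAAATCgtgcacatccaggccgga
Tubb4b: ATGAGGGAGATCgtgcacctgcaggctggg
Tubb2a: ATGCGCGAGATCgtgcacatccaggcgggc
Tubg1: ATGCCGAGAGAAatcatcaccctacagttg
Stmn1: ATGGCATCTTCTgatattcaggtgaaagag
The stretches of Tuba1b and Tuba1c are the same. Over the whole coding sequence, identity lay between 84.8% and 98.3% among the 4 α-tubulin genes, between 80.3% and 84.6% among the 4 β-tubulin genes, and between 56.2% and 58.4% across the families.

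The libraries held 12954342 to 22075432 counts in genes. The anti-ITGA5 libraries without fibronectin differed most among themselves (a chi-square per gene of 10.4 to 23.0 between pairs, against 2.65 to 7.45 in the other groups), and replicate 2 of that group was the shallowest. The defining macrophage genes Csf1r, Adgre1, Cd68 and Lyz2 were abundant in every library, from at least 155 FPKM for Adgre1. The summed level of 6 fibroblast genes did not exceed 0.378 FPKM, and that of 6 neutrophil genes did not exceed 4.43 FPKM. Of the neutrophil genes, Ly6g had no count, while S100a8 had 17 to 44 and Mpo 3 to 21 counts per library. Itga5 itself, whose protein and not transcript was the target, differed by 0.15 and 0.07 on the log2 scale upon neutralization (edgeR, adjusted p = 0.0906 without and 0.273 with fibronectin), so that it does not check the labels.

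On the per-length scale (FPKM), Tubb5 and Tuba1b were the most abundant of the 10 transcripts in every group. In IgG without fibronectin, Tubb5 had a mean of 383 FPKM and Tuba1b of 316 FPKM. Tubb2a, Tubb6 and Tubb4b followed at 107, 104 and 102 FPKM, with Tubb2a and Tubb6, and Tubb6 and Tubb4b, overlapping between libraries. Tuba1c had 76.5 FPKM, Stmn1 48.3, Tuba4a 20.997, Tubg1 17.1 and Tuba1a 11.2, each below every library of the gene before it.

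Upon ITGA5 neutralization that order changed. Tubb4b, the lowest β gene in both IgG groups, was second only to Tubb5 among the β genes in both anti-ITGA5 groups, at 150 FPKM without and 164 FPKM with fibronectin. Its libraries overlapped those of Tubb6 in both IgG groups and in both anti-ITGA5 groups. Tubg1 passed Tuba4a, at 21.2 against 17.9 FPKM without fibronectin with no overlap, and at 22.002 against 18.9 FPKM with fibronectin, where the libraries overlapped. Stmn1 came within the range of Tuba1c, and Tuba1b within that of Tubb5, in both anti-ITGA5 groups.

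**Figure D1:**
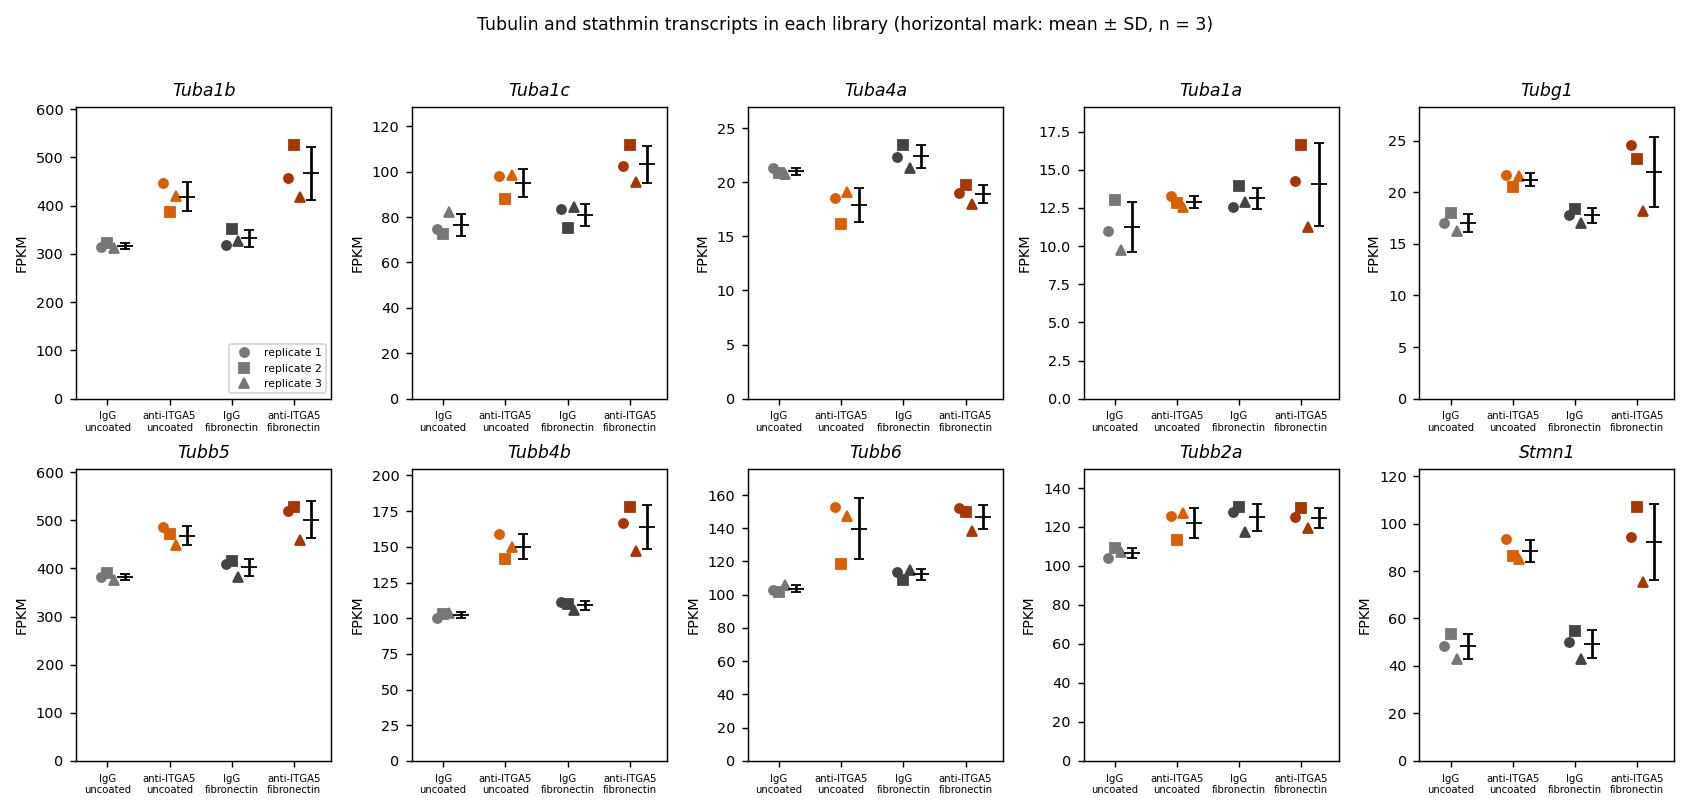
FPKM of the 10 genes in each of the 12 libraries, one panel per gene, with the groups along the horizontal axis, the replicate number as the symbol and the mean ± SD (n = 3) beside the points. Both anti-ITGA5 groups of Stmn1 (75.5 to 107 FPKM) lie above both IgG groups (42.9 to 54.7 FPKM), and those of Tuba4a lie below.

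ITGA5 neutralization raised most of these transcripts. Without fibronectin, 8 of the 10 genes were higher and 1 was lower in anti-ITGA5 than in IgG (edgeR quasi-likelihood test, adjusted p of 0.05 or less), where 11.0% of all 12924 genes tested were higher and 9.79% lower. With fibronectin, 7 were higher and 1 lower, where 14.4% of 12916 genes were higher and 13.2% lower. The median log2 fold change of the 10 genes was 0.32 without and 0.33 with fibronectin, and that of all genes was 0.0090 and -0.0038. In bulk samples, a change in the share of cells that carry a transcript and a change in its amount per cell cannot be told apart.

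Stmn1 changed most. Its FPKM values were 48.4, 53.6 and 42.9 in IgG without fibronectin and 93.7, 86.5 and 84.9 in anti-ITGA5 without fibronectin. On fibronectin they were 50.2, 54.7 and 43.0 in IgG and 94.3, 107 and 75.5 in anti-ITGA5. The lowest anti-ITGA5 library thus stood above the highest IgG library on either surface, and replicate 3 was the lowest of each group. The log2 fold change was 0.88 ± 0.0772 (SE, adjusted p = 3.9e-05) without fibronectin and 0.90 ± 0.108 (adjusted p = 7.0e-05) with it. Leaving out 1 library at a time gave log2 fold changes of 0.80 to 0.96 and of 0.78 to 1.03. With 3 libraries against 3, an exact permutation test of any single gene cannot give a two-sided p below 0.1.

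Among the β-tubulin genes, Tubb4b, a broadly expressed isotype, moved most. It measured 100.01, 103 and 104 FPKM in IgG and 159, 142 and 150 FPKM in anti-ITGA5 without fibronectin. With fibronectin it measured 112, 110 and 106 FPKM in IgG and 167, 178 and 147 FPKM in anti-ITGA5. No library of one antibody overlapped the other, and the log2 fold changes were 0.56 (adjusted p = 6.0e-05) and 0.59 (adjusted p = 2.0e-05).

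Tubb6 (chr18:67390717-67402748) rose by 0.44 ± 0.0789 on the log2 scale without fibronectin (adjusted p = 0.00324) and by 0.38 ± 0.0457 with it (adjusted p = 6.7e-05). Its anti-ITGA5 libraries without fibronectin spread from 119 FPKM, in the shallow replicate 2, to 153 FPKM, against 102 to 106 FPKM in IgG. Without that library the log2 fold change was 0.53. Tubb5, the main β-tubulin transcript here, rose from 377 to 390 FPKM in IgG to 448 to 486 FPKM in anti-ITGA5 without fibronectin (log2 fold change 0.30, adjusted p = 0.00239), and from 382 to 416 FPKM to 458 to 528 FPKM with it (0.32, adjusted p = 0.000787). In mean FPKM it went from 383 to 468 and from 402 to 501, the largest gains of the 10 genes after those of Tuba1b.

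Tubb2a, an isotype best known from neurons, behaved unlike the other β genes. Without fibronectin it measured 104, 109 and 107 FPKM in IgG and 126, 113 and 127 FPKM in anti-ITGA5. With fibronectin, IgG macrophages already had 128, 130 and 117 FPKM, and anti-ITGA5 macrophages had 125, 130 and 119 FPKM. The groups were apart on uncoated plastic and overlapped on fibronectin. The log2 fold change upon neutralization was 0.20 ± 0.0539 without fibronectin (adjusted p = 0.0247) and -0.0058 ± 0.0487 with it (adjusted p = 0.945, 95% confidence interval -0.11 to 0.10). The call without fibronectin was lost when any single IgG library, anti-ITGA5 replicate 1 or anti-ITGA5 replicate 3 was left out, with adjusted p up to 0.138. The difference between surfaces did not pass the interaction test given below (edgeR, adjusted p = 0.9997).

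The α-tubulin genes split. Tuba1b, the main α-tubulin transcript here, measured 314, 323 and 312 FPKM in IgG and 448, 388 and 421 FPKM in anti-ITGA5 without fibronectin. With fibronectin it measured 318, 353 and 327 FPKM in IgG and 457, 526 and 418 FPKM in anti-ITGA5. The antibodies did not overlap on either surface, and the log2 fold changes were 0.41 (adjusted p = 0.000665) and 0.49 (adjusted p = 0.000259). Tuba1c, its neighbour on chromosome 15, lay between 72.5 and 82.1 FPKM in IgG and between 87.8 and 98.5 FPKM in anti-ITGA5 without fibronectin. With fibronectin it lay between 75.4 and 84.2 FPKM in IgG and between 95.6 and 112 FPKM in anti-ITGA5, so the groups did not overlap on either surface. It rose by 0.32 (adjusted p = 0.00535) and 0.35 (adjusted p = 0.00101) on the log2 scale. Tuba1a, the lowest of the 10 with 308 to 558 counts per library, had log2 fold changes of 0.20 (adjusted p = 0.203) and 0.10 (adjusted p = 0.563). Its groups overlapped on both surfaces. Without replicate 2 of IgG without fibronectin the first value became 0.32 (adjusted p = 0.0492), and without replicate 3 of that group it became 0.11 (adjusted p = 0.533).

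Tuba4a was the only one of the 10 that fell, in both fits. It measured 21.3, 20.9 and 20.8 FPKM in IgG and 18.6, 16.1 and 19.1 FPKM in anti-ITGA5 without fibronectin. With fibronectin it measured 22.4, 23.4 and 21.3 FPKM in IgG and 19.0, 19.7 and 18.02 FPKM in anti-ITGA5. Every anti-ITGA5 library lay below every IgG library of the same surface. The log2 fold change was -0.22 without fibronectin (adjusted p = 0.0317) and -0.24 with it (adjusted p = 0.00483). The first call was lost without any single IgG library or without anti-ITGA5 replicate 1 (adjusted p up to 0.132), whereas the second held without any single library (adjusted p up to 0.0232). Tuba4a (chr1:75214228-75219865) overlaps Stk16 on the opposite strand, and 45.7% of the 150-base windows of the Tuba4a transcript used also occur in Stk16 transcripts. The strand setting of the counting is not given in the sources used here. Stk16 had up to 624 counts per library and differed by 0.05 and -0.0099 on the log2 scale (adjusted p = 0.638 and 0.936).

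Tubg1, which encodes the γ-tubulin of the ring complexes, measured 17.0, 17.96 and 16.2 FPKM in IgG and 21.7, 20.5 and 21.5 FPKM in anti-ITGA5 without fibronectin. With fibronectin the values were 17.8, 18.4 and 17.0 FPKM against 24.6, 23.3 and 18.1 FPKM, so that the lowest anti-ITGA5 library fell among the IgG libraries. Its log2 fold changes were 0.32 (adjusted p = 0.00407) and 0.31 (adjusted p = 0.0264). The call with fibronectin was lost without IgG replicate 1 or 3 or without anti-ITGA5 replicate 1 or 2, with adjusted p up to 0.137.

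**Figure D2:**
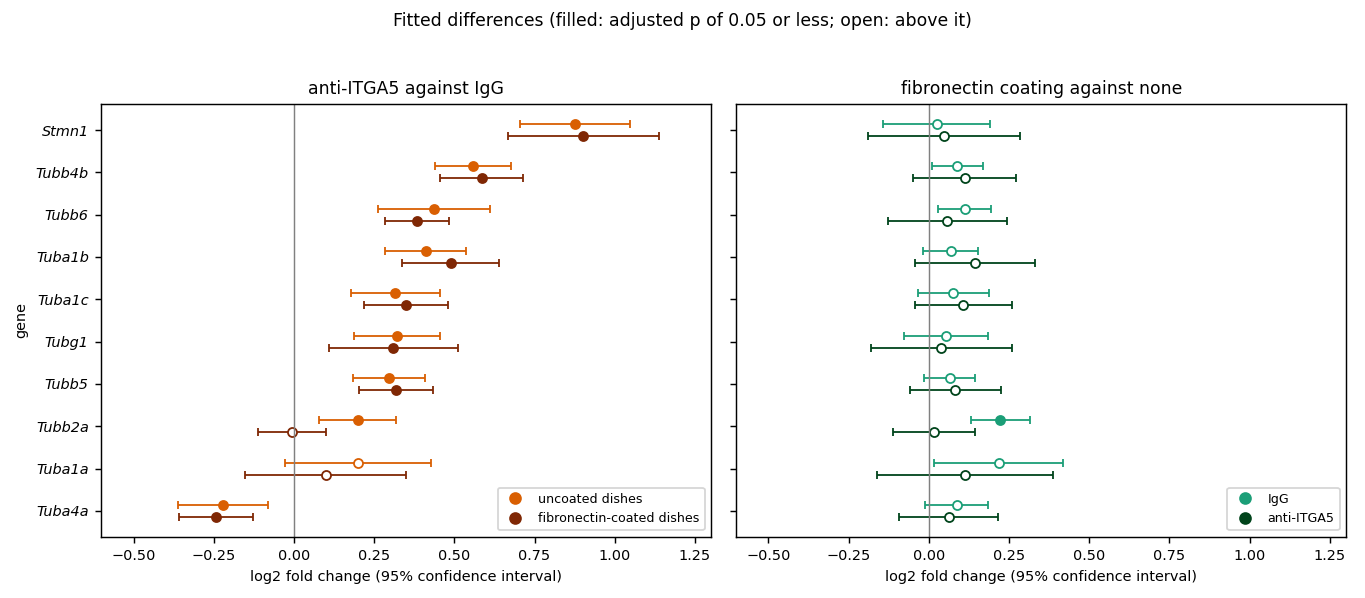
Log2 fold changes with 95% confidence intervals for the 10 genes, for the antibody on either surface (left) and for the fibronectin coat under either antibody (right), with filled symbols at an adjusted p of 0.05 or less. Stmn1 lies farthest to the right of 0 for the antibody (0.88 and 0.90), Tuba4a lies to the left (-0.22 and -0.24), and for the coat Tubb2a in IgG (0.22) is the filled symbol.

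The unequal changes shifted the makeup of the tubulin transcripts, measured as shares of the summed FPKM of each family and so independent of library scaling. The share of Tuba4a among the 4 α genes was 4.94% ± 0.112 (SD, n = 3) in IgG and 3.29% ± 0.148 in anti-ITGA5 without fibronectin, and 4.98% ± 0.173 and 3.15% ± 0.201 with it. The share of Tuba1b was 74.4% and 76.9% without and 74.0% and 77.4% with fibronectin. The antibody groups of these shares did not overlap on either surface.

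Among the 4 β genes, Tubb4b made up 14.7% ± 0.245 in IgG and 17.1% ± 0.251 in anti-ITGA5 without fibronectin, and 14.6% ± 0.145 and 17.5% ± 0.526 with it. Tubb2a went the other way, from 15.3% ± 0.218 to 13.9% ± 0.623 and from 16.7% ± 0.374 to 13.3% ± 0.446. Neither gene's share overlapped between the antibodies. Tubb5 kept the largest share of the β family in all 4 groups, with means of 53.2% to 55.1%.

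**Figure D3:**
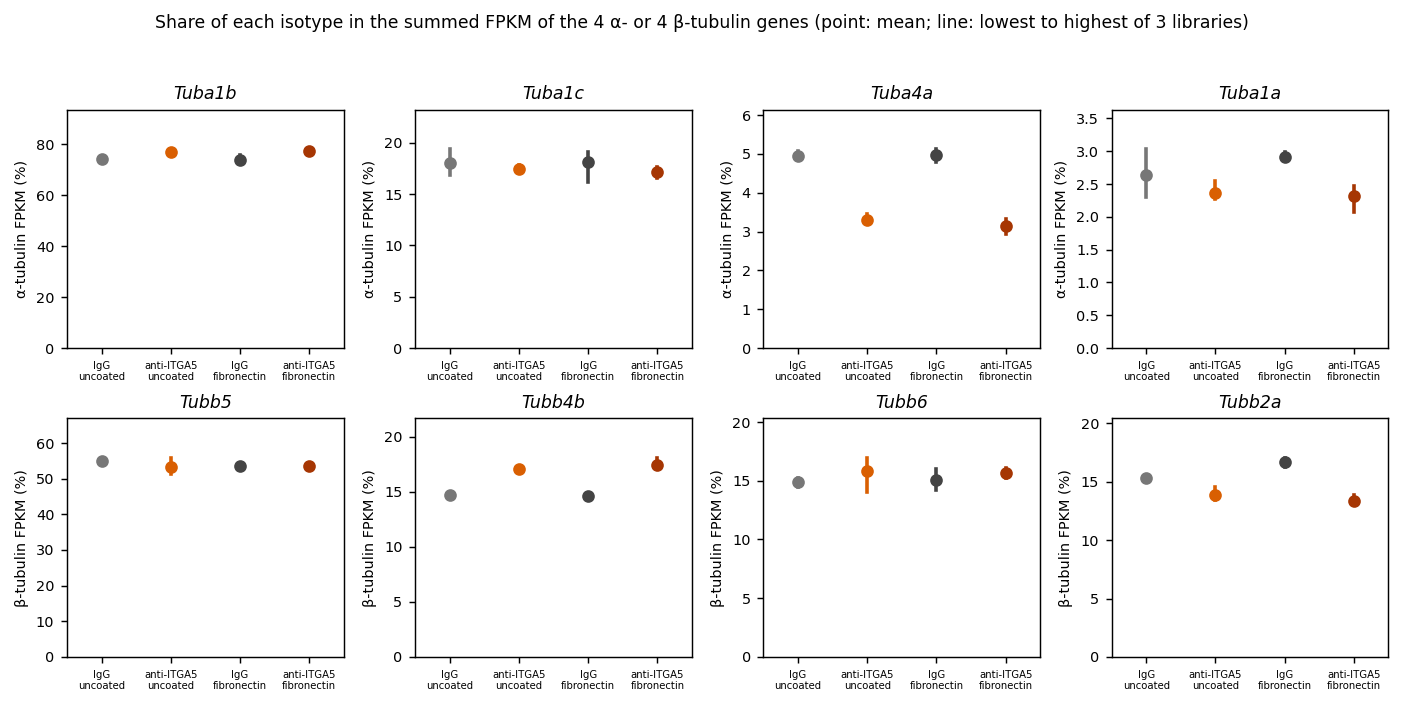
Share of each isotype in the summed FPKM of the 4 α-tubulin (top) or 4 β-tubulin (bottom) genes by group, as the mean (point) and the range of 3 libraries (line), in percent. Tuba4a falls from about 4.94% to 3.29% and from 4.98% to 3.15%, Tubb4b rises from 14.7% to 17.1% and from 14.6% to 17.5%, and Tubb2a falls on both surfaces.

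Because the isotypes are so alike, reads of one could be counted under another. Of all 150-base windows in the transcript used, 54.7% in Tuba1a, 57.9% in Tuba1b and 46.7% in Tuba1c occur in a transcript of another gene, against 27.9% in Tubb2a (shared with Tubb2b), 16.8% in Tubb4b, 16.6% in Stmn1 and 0.907% in Tubg1. Tubb5 and Tubb6 had no such window. Tuba1a and Tuba1b also share exon bases on one strand with Gm49450 (26.2% and 24.4% of theirs). The single values of Tuba1a, Tuba1b and Tuba1c are uncertain to that extent. So are their places in the order of FPKM given above and the shares within the α family. Summed into 1 row, the counts of these 3 genes rose by 0.38 ± 0.0553 (SE, adjusted p = 0.000795) without and 0.45 ± 0.0638 (adjusted p = 0.000255) with fibronectin on the log2 scale. The sum of the β genes with Tubb2b rose by 0.34 (adjusted p = 0.000623) and 0.33 (adjusted p = 0.000432).

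Fibronectin was compared with uncoated plastic under each antibody. In IgG macrophages the coat raised 1 of the 10 genes, Tubb2a, where 0.325% of 12925 genes were higher. Its log2 fold change was 0.22 ± 0.0428 (adjusted p = 0.0295), with 104 to 109 FPKM on uncoated plastic and 117 to 130 FPKM on fibronectin and no overlap. That call was lost with total-count scaling (adjusted p = 0.0569), with all 12 libraries in one fit (0.220), and without IgG replicate 1 or 2 on either surface (up to 0.315). The other 9 log2 fold changes lay between 0.02, for Stmn1, and 0.22, for Tuba1a (adjusted p = 0.462), and 4 of the 10 genes had an unadjusted p under 0.05, as did 9.79% of all genes.

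In anti-ITGA5 macrophages none of the 10 genes passed the test for the coat, nor did any other gene in edgeR (0% of 12863 genes). At an unadjusted p under 0.05 there were 461 genes, 0 of them among the 10, and DESeq2 called 5 genes, also with 0 among the 10. Without the low-count filter edgeR called 327 genes and in one fit of all 12 libraries 2, again with 0 of the 10. The 10 log2 fold changes were all positive, between 0.02 and 0.14. For Stmn1 the value was 0.05, with a 95% confidence interval of -0.19 to 0.28.

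The comparisons share libraries, so whether the coat altered the response to the antibody was tested as an interaction. None of the 10 genes passed (0.0223% of 13455 genes did). The largest interaction among them was that of Tubb2a, -0.21 ± 0.0741 on the log2 scale (unadjusted p = 0.0131, adjusted p = 0.9997, edgeR), the only one of the 10 under 0.05 before adjustment, where 2.87% of all genes were. For Stmn1 it was 0.02, with a 95% confidence interval of -0.31 to 0.35. The difference of Tubb2a between surfaces thus did not pass the test, and its interval was -0.37 to -0.05.

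The rest of the tubulin superfamily was sparse in these cells. Of 11 other tubulin genes, 4 were tested. Tubd1 and Tube1, which encode the δ- and ε-tubulin of centrioles, rose by 1.32 and 0.76 on the log2 scale without fibronectin (adjusted p = 0.000109 and 0.0017) and by 1.21 and 0.75 with it (adjusted p = 4.6e-05 and 0.000255). Tubb2b rose by 0.84 and 0.59 (adjusted p = 0.0147 and 0.0208), at 43 to 99 counts per library. Tubb4a had log2 fold changes of -0.36 and -0.39 (adjusted p = 0.281 and 0.111). The remaining 7, among them Tubb3 and Tubg2, did not exceed 6 counts in any library, and Stmn2, Stmn3 and Stmn4 did not exceed 5.

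Most genes of the γ-tubulin ring complex rose with Tubg1. Of 9 genes of the γ-tubulin ring complex and its adaptors, 6 were higher and 0 lower on either surface, with median log2 fold changes of 0.27 and 0.29. Of all genes tested, 11.0% were higher and 9.79% lower without fibronectin, and 14.4% and 13.2% with it. Cdk5rap2, which recruits and activates the rings at the centrosome, rose by 0.62 and 0.63 (adjusted p = 0.000239 and 2.9e-05), and Tubgcp2, a core subunit, by 0.36 and 0.43 (adjusted p = 0.0028 and 0.000613). Tubgcp4 and Tubgcp5, subunits of the large ring, had log2 fold changes of -0.18 and -0.18 without and -0.12 and -0.07 with fibronectin (adjusted p of 0.104 or more). Of the 8 subunits of augmin, which places the rings on existing spindle microtubules, 4 were higher without and 6 with fibronectin (11.0% and 14.4% of all genes were), and none was lower. Haus1 rose by 0.52 and 0.60 (adjusted p = 0.00471 and 0.00145).

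Genes for the folding and modification of tubulin were also tested. Of all genes, 11.0% were higher and 9.79% lower without fibronectin, and 14.4% and 13.2% with it. Among 20 genes of the prefoldin, CCT chaperonin and cofactor pathway that folds tubulin, 3 were higher without and 9 with fibronectin, and 0 were lower, with medians of 0.09 and 0.11. Vbp1, a prefoldin subunit, rose by 0.38 and 0.36 (adjusted p = 0.0122 and 0.00231), and Tbcd, a cofactor of dimer assembly, by 0.27 and 0.23 (adjusted p = 0.00438 and 0.00382). The 3 of 20 folding genes called without fibronectin are close to the share of all genes. Among 14 genes for tubulin modification and mRNA decay tested, 3 were higher on either surface and 1 was lower with fibronectin, with medians of 0.10 and 0.09. Ttll5, a polyglutamylase, rose by 0.84 and 0.72 (adjusted p = 0.00582 and 0.00074), and Agtpbp1, which removes glutamates, by 0.68 and 0.58 (adjusted p = 9.6e-05 and 5.7e-05). Ttc5, which reads the tubulin peptide start described above, had log2 fold changes of -0.0061 and -0.06 (adjusted p = 0.958 and 0.545).

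Of 22 microtubule-associated genes tested, 3 were higher and 4 lower without fibronectin, where 11.0% and 9.79% of all genes were, and 5 and 5 with it, where 14.4% and 13.2% were. Ckap5, a microtubule polymerase, rose by 0.78 and 0.76 (adjusted p = 0.000208 and 3.7e-06) and Clasp1, which stabilizes microtubule ends, by 0.46 and 0.40 (adjusted p = 0.00239 and 0.0013). Mtus1, a microtubule-binding protein, fell by 0.56 and 0.44 (adjusted p = 0.00812 and 0.0483). The medians of this list were -0.01 and -0.0081, close to those of all genes.

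Transcripts of the G2 and M phase rose with the tubulins, whereas most of the S phase genes did not pass. All 20 genes of the G2 and M phase list were higher on either surface, with median log2 fold changes of 1.44 and 1.42, and their summed level was 189 to 250 FPKM in IgG and 540 to 625 FPKM in anti-ITGA5 without fibronectin. Plk1, a mitotic kinase, rose by 2.18 and 2.27 (adjusted p = 2.0e-06 and 2.7e-06), and the smallest change in that list was 0.88 without and 1.01 with fibronectin. Of 16 S phase genes, 6 were higher without and 4 with fibronectin (11.0% and 14.4% of all genes were), with medians of 0.15 and 0.13. Tyms, the thymidylate synthase, rose by 0.75 and 0.69 (adjusted p = 7.4e-05 and 0.00013).

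The summed level of 8 macrophage markers moved too, from 8977 to 9822 FPKM in IgG to 6129 to 7517 FPKM in anti-ITGA5 without fibronectin, and from 9558 to 9759 to 7336 to 7506 FPKM with it. Of the 8, 4 were lower and 1 higher on either surface, where 9.79% and 13.2% of all genes were lower and 11.0% and 14.4% higher. Lyz2, lysozyme, made up most of that sum (a mean of 7514 of 9360 FPKM in IgG without fibronectin) and fell by 0.51 and 0.46 on the log2 scale (adjusted p = 0.000789 and 3.1e-06). Cd14 went the other way, with means of 104 in IgG and 142 FPKM in anti-ITGA5 without fibronectin, and 105 and 125 FPKM with it. Mean Adgre1 did not fall (169 and 170 FPKM without, 167 and 180 FPKM with fibronectin). The other 7 markers summed to 1828 to 1874 FPKM in IgG and 1570 to 1736 FPKM in anti-ITGA5 without fibronectin, and to 1850 to 1884 and 1734 to 1755 FPKM with it. The summed level of 6 megakaryocyte genes was 5.15 to 5.78 FPKM in IgG and 1.91 to 2.98 FPKM in anti-ITGA5 without fibronectin, and 7.03 to 7.88 and 3.09 to 4.87 FPKM with it. Ppbp, a platelet chemokine gene, made up most of it, with means of 5.05 and 2.21 FPKM without and 6.97 and 3.55 FPKM with fibronectin, and the other 5 together lay between 0.135 and 0.873 FPKM over the 12 libraries. The summed level of 6 neutrophil genes was 2.37 to 4.04 FPKM in IgG and 2.59 to 3.56 FPKM in anti-ITGA5 without fibronectin, and 3.02 to 4.43 and 1.82 to 3.001 FPKM with it, where the groups did not overlap. With fibronectin 2 of them were tested, and without it 1. With fibronectin S100a8 changed by -0.61 on the log2 scale (adjusted p = 0.156). Mpo, a neutrophil granule enzyme, changed by -0.94 and just passed (adjusted p = 0.0499). Its 3 to 21 counts per library lie around the filter's minimum count of 10, so that call does not decide whether Mpo fell. The summed level of 6 lymphocyte genes did not exceed 0.481 FPKM. The part of the cell cycle genes and cell type markers in the tubulin results was not tested.

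**Figure D4:**
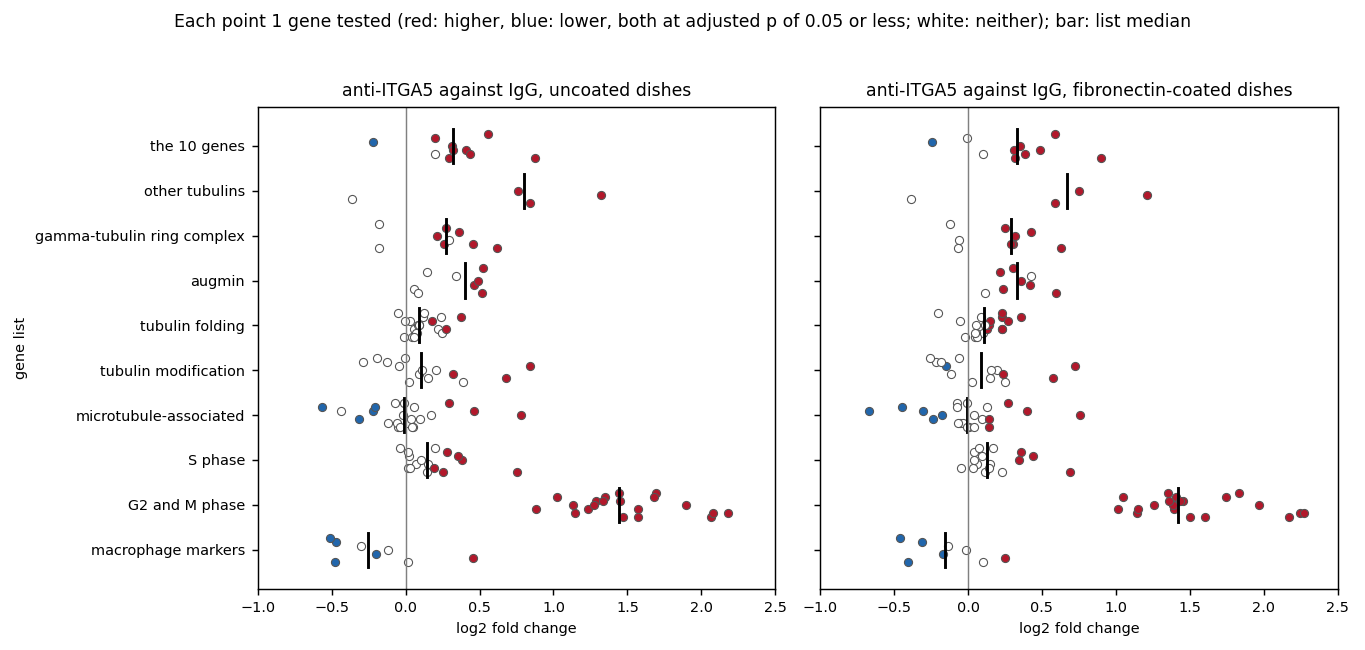
Log2 fold changes of single genes in 10 lists (rows), anti-ITGA5 against IgG on uncoated (left) and fibronectin-coated (right) dishes, with the list median as a bar and coloured points at an adjusted p of 0.05 or less. All 20 G2 and M phase genes lie at 0.88 or more, the 10 tubulin and stathmin genes centre at 0.32 and 0.33, and the microtubule-associated genes lie on both sides of 0.

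Across the 12 libraries the rising tubulins varied together. The Pearson correlation of scaled log2 expression was 0.977 between Tuba1b and Tubb4b, 0.973 between Tubb5 and Tubb4b, and 0.969 between Stmn1 and Tubb4b. Tuba4a was negatively correlated with Stmn1 (-0.73) and Tubb4b (-0.71), and Tubb2a reached at most 0.68, with Tuba1a. The 12 points hold the 4 groups, so these values mix the antibody difference with the spread within groups. Among 13455 genes, the 3 most alike to Stmn1 were Mad2l1 (0.997), Ccna2 (0.996) and Cdkn2c (0.995). For Tubb4b they were Rangap1 (0.990), Spidr (0.990) and Gusb (0.986), for Tuba4a Ctsb (0.970), Oaz1 (0.966) and Hnrnph2 (0.958), and for Tubb2a Cdk16 (0.912), Tecr (0.884) and Psmd13 (0.881). The single gene most alike was Rpa1 (0.983) for Tuba1b, Eef1d (0.963) for Tuba1c, Pomk (0.954) for Tuba1a, Ccdc34 (0.988) for Tubb5, H2afy (0.984) for Tubb6 and 2810025M15Rik (0.963) for Tubg1.

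Promoter sequence was compared for the 7 genes that matched the RefSeq table of GRCm38.p6 (Tuba1a, Tuba1b, Tuba1c, Tuba4a, Tubb5, Tubb4b and Tubb2a), from 250 bases before to 50 bases after the start. Tubb4b and Tubb2a are shown because they were the β genes with the largest and the smallest response to the antibody. The 250 bases before the start are printed, at chr2:25224703-25224952 and chr13:34078009-34078258, both on the minus strand, with matches to CCAAT and TTTGAA on either strand in capitals.
Tubb4b: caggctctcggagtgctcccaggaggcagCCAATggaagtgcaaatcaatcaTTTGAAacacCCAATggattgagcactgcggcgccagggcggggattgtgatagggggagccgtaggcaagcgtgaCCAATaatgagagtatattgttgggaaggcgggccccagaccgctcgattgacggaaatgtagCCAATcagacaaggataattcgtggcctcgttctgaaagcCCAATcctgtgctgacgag
Tubb2a: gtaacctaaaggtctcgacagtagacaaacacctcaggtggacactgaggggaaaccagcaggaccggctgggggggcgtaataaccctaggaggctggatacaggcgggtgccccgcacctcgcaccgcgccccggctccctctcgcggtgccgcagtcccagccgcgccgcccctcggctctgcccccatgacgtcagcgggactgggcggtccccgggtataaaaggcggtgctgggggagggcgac
Tubb4b holds 5 matches to CCAAT and 1 to TTTGAA (the letters of the cell cycle homology element), and none of them overlaps another. Tubb2a holds neither. CCAAT occurs in 4 of the 7 windows (Tuba1a, Tuba1c, Tubb5 and Tubb4b) and in 37.4% of 32851 promoter windows of the same length, and TTTGAA in 1 of the 7 and in 17.9%. GGGCGG, a GC box, occurs in 6 of the 7 and in 35.7% of all windows, and TTTCGCGC or TTTGGCGC, letters bound by E2F factors, in 0 of the 7 and in 0.813%. These matches describe the letters in the windows only.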

How the data were processed

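Poly(A) RNA of 12 macrophage samples was sequenced as paired ends. The authors deposited 2 tables over 54532 Ensembl genes of GRCm38: raw read counts per gene, made with TopHat2 2.0.9 and HTSeq 0.6.1 (submitters' processing notes, which also name Cufflinks 2.1.1), and FPKM values, which the authors scaled by gene length and by 1 total per library. The annotation release and the strand setting are not given in the sources used here. Reads of near-identical isotypes, and of genes that overlap, can be split or lost at counting.

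The counts were fitted with edgeR 4.0.16 (R 4.3.3; TMM scaling, filterByExpr with a minimum count of 10, quasi-likelihood test, Benjamini-Hochberg adjustment over all genes tested, threshold 0.05), with the 6 libraries of each comparison in the fit and all 12 for the interaction. This differs from the study's own tool, DESeq2 (1.42.0 here), which was an alternative, as were limma 3.58.1 on the log2 of FPKM, offset by 1 (with a mean of at least 0.5 FPKM, or no filter) or by 0.1, other scalings and filters, a replicate block, summed paralogs and leaving out each library. FPKM were used for levels between genes and for shares.

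The model fits were first run on simulated data. The changes put in were larger than every fold change of the 10 genes, so that run does not bear on small changes. Sequences came from GENCODE M21 and RefSeq, read with Biopython 1.88. Of the 10 genes, 9 had the same coordinates in GENCODE M21 as in the tables. The 10 genes and all gene lists (other tubulins and stathmins, ring complex, augmin, folding, modification, microtubule-associated, cell cycle phases, cell types) were chosen with earlier results of these data known. Of the longer lists, at most 3 genes were named, those with the largest mean change among genes called on both surfaces, and of other tubulins, ring complex and augmin genes that passed. Tubb3, Tubb4a, Tubg2, Stmn2, Stmn3, Stmn4, Tubgcp4, Tubgcp5, Ttc5, Stk16 and the cell type markers Csf1r, Adgre1, Cd68, Cd14, Lyz2, Ly6g, Mpo, S100a8 and Ppbp fall outside that rule and were named after their values were seen.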

Additional observations from a re-analysis of the deposited data

How the results depend on the processing

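Stmn1, Tubb4b, Tubb6, Tuba1b, Tuba1c, Tubb5 and Tubg1 were higher upon ITGA5 neutralization, and Tuba4a lower, in every alternative tried on either surface; calls were lost as given with each gene and with limma on unfiltered FPKM (offset 1), which left 3 of the 10 genes called without fibronectin and 6 with it. The call of Tubb2a without fibronectin was also lost without the low-count filter (adjusted p = 0.0905), and with filtered FPKM in limma those of Tubb2a and Tuba4a without fibronectin (0.0656 to 0.0705) and of Tubg1 with it (0.0975 and 0.0979) were lost. Limma on unfiltered FPKM gave 1220 and 1871 calls over all genes, and an adjusted p of 0.01 or less gave 1347 and 2046, against 2684 and 3565. Total-count scaling made the calls over all genes less balanced. It gave 1838 higher and 940 lower without fibronectin, and 2407 higher and 1264 lower with it. The main fit gave 1419 and 1265 without fibronectin, and 1866 and 1699 with it. Without 1 library, the calls over all genes without fibronectin ranged from 1473 to 3834, the highest without anti-ITGA5 replicate 2. The small effect of the antibody on Tubb2a with fibronectin turned to 0.035 with total-count scaling and ranged from -0.055 to 0.025 without 1 library, and the summed β row that holds it gave 0.33. That of Tuba1a with fibronectin ranged from -0.039 to 0.23.

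For fibronectin in IgG, the single call was lost (0 of the 10 genes) with total-count scaling, one fit of all 12 libraries, the 3 limma settings and the 0.01 threshold, and without 1 library it was 0 or 1. The summed β row that holds Tubb2a gave 0.088 for the coat in IgG (adjusted p = 0.407). Over all genes the 58 calls became 141 with DESeq2, 241 without the low-count filter, 11 in one fit, 7, 5 and 17 with limma (offset 1, offset 0.1, no filter), 16 at 0.01, and 9 to 101 without 1 library. For fibronectin in anti-ITGA5, the 0 calls became 5 with DESeq2, 327 without the filter, 2 in one fit and 0 to 4 without 1 library. For the interaction, the 3 calls became 65 without the filter, 1, 1 and 7 with limma, and 1 to 6 without 1 library.

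Uncalled values near 0 changed sign without 1 library. For the coat, Stmn1 ranged from -0.055 to 0.11 in IgG, and in anti-ITGA5 Tuba1a ranged from -0.025 to 0.24, Tubb6 from -0.038 to 0.12, Tubb2a from -0.025 to 0.043, Tubg1 from -0.045 to 0.15 and Stmn1 from -0.072 to 0.17. For the interaction, Tuba1a ranged from -0.23 to 0.040, Tuba1b from -0.011 to 0.16, Tuba1c from -0.024 to 0.092, Tuba4a from -0.083 to 0.025, Tubb5 from -0.017 to 0.090, Tubb4b from -0.032 to 0.10, Tubb6 from -0.15 to 0.021, Tubg1 from -0.10 to 0.11 and Stmn1 from -0.088 to 0.16; the summed rows gave 0.060 (α, with Tuba1a) and -0.0096 (β, with Tubb5 and Tubb4b).

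The labels do not say what a shared replicate number marks, and the deviations of same-numbered libraries correlated at -0.02 to 0.15, not all over 0.1, so the numbers were not used as pairs. A replicate block left the calls among the 10 genes at 9, 8, 1, 0 and 0. Over all genes it gave 416 calls for fibronectin in IgG and 2 in anti-ITGA5. As a hint from the data that the numbers may carry something shared, every library matched its own number best in 3 of the 4 two-group comparisons. The cause of these shifts was not tested.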
